A study of Rattus norvegicus with 12 samples.

Results

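The renin-angiotensin system was represented by 8 genes of the normalized expression table, listed by name and found by their row names: Agt, Ace, Agtr1a, Agtr1b, Mas1, Enpep, Mme and Atp6ap2. All 8 were among the 13151 genes of the table, and 7 of them passed the filter on low values that 11633 genes passed. RNA of whole renal cortex was sequenced from 12 male rats aged 32 weeks, 4 in each of 3 groups. ZL rats were lean Zucker rats. ZF rats were Zucker fatty rats, which lack a working leptin receptor and become obese. The ZF-SGLT2i rats were Zucker fatty rats that received canagliflozin, an inhibitor of the glucose transporter SGLT2, in their food at 10 mg/kg/day, started when they were 24 weeks old and kept up for 8 weeks. The ZF-SGLT2i rats thus carry the same leptin receptor defect as the ZF rats, and no lean rat was given the drug. The study's lean rats and its first set of fatty rats had kidney biopsies at earlier ages, whereas the treated rats came from a separate set of fatty rats for which no biopsy is described. The study names the sequenced ZF rats in 1 place as the untreated group of that separate set, and the labels do not give the set. Taken so, biopsy and rat set cannot be told apart from the groups in either comparison with ZL rats. Were the sequenced ZF rats from the first set, biopsy and rat set could not be told apart from the groups in either comparison of ZF-SGLT2i rats. The libraries held 8824980 to 12210257 reads on genes per rat.

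The renin-angiotensin system controls blood pressure, salt balance and blood flow through the glomerulus. Angiotensinogen (Agt) is cut to angiotensin I, which angiotensin-converting enzyme (Ace) turns into the vasoconstrictor angiotensin II. Angiotensin II acts on the type 1 receptor, which rats make from the genes Agtr1a and Agtr1b. Peptidases on cell surfaces break the peptides down or pass them to other branches: aminopeptidase A (Enpep) trims angiotensin II, neprilysin (Mme) makes shorter peptides, and Mas1 is the receptor of the vasodilator branch. Atp6ap2 is the (pro)renin receptor and also a part of the vacuolar proton pump. In the kidney, proximal tubule cells make angiotensinogen and carry many of these peptidases on their brush border.

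The tissue was checked against its markers first. Lrp2, the endocytic receptor megalin of the proximal tubule, had normalized values of 5057 to 11361 across the 12 rats, and the phosphate transporter Slc34a1 had 3304 to 5478. The podocyte gene Nphs1 lay between 132 and 219. Of the liver and plasma protein genes, 4 of 6 were in the table. Albumin (Alb) had at most 4 reads in any rat and Apoa1 at most 5, while the fibrinogen gene Fga had 96 to 215 reads in every rat. Serpina1, the gene of alpha-1 antitrypsin, had 0 to 9 reads in ZL and ZF rats and 13 to 23 in ZF-SGLT2i rats, and was higher in ZF-SGLT2i than in ZF rats (1.00, limma adjusted p = 0.0151). The fat cell gene Plin1 had at most 4 reads. ZL rats 1 and 4 stood apart from ZL rats 2 and 3 in the genes of the straight part of the proximal tubule (S3). Slc7a13, an amino acid transporter of that segment, had values of 838 and 1896 in ZL rats 1 and 4 against 140 and 244 in ZL rats 2 and 3. Calls among the 8 genes and counts over gene lists against ZL rats are also given without these rats, while the values of other single genes rest on all 4 ZL rats unless stated. In whole cortex, fewer cells of a type and less RNA per cell cannot be told apart. Normalized values are whole reads multiplied by a constant for each rat. They are not divided by gene length, so levels are compared between rats and not between genes. A gene is called changed where limma's adjusted p, over the 11633 genes, was under 0.05, and fold changes are on the log2(value + 1) scale.

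In ZF against ZL rats, 2 of the 7 tested genes were lower, Agt and Mme. Of all genes tested 18.8% were called, 8.19% higher and 10.6% lower. In ZF-SGLT2i against ZF rats, 1 of the 7 was lower, Agtr1a, where 3.15% of all genes were called, 1.39% higher and 1.75% lower. In ZF-SGLT2i against ZL rats, 4 of the 7 were lower, Agt, Agtr1a, Enpep and Mme, where 27.4% of all genes were called, 12.4% higher and 15.0% lower. Without ZL rats 1 and 4, 1 of the 7 was higher and 1 lower in ZF rats, and 2 were lower in ZF-SGLT2i rats. The median log2 fold change of the 7 genes was -0.16, -0.10 and -0.43 in these comparisons, against -0.0077, 0.0064 and -7.0e-05 for all genes tested. With so few genes, these counts describe the genes and say nothing about the system as a whole. Both comparisons with ZL rats share those rats, and both comparisons of ZF-SGLT2i rats share the treated ones. The comparisons that involve ZF rats share the ZF group.

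**Figure D1:**
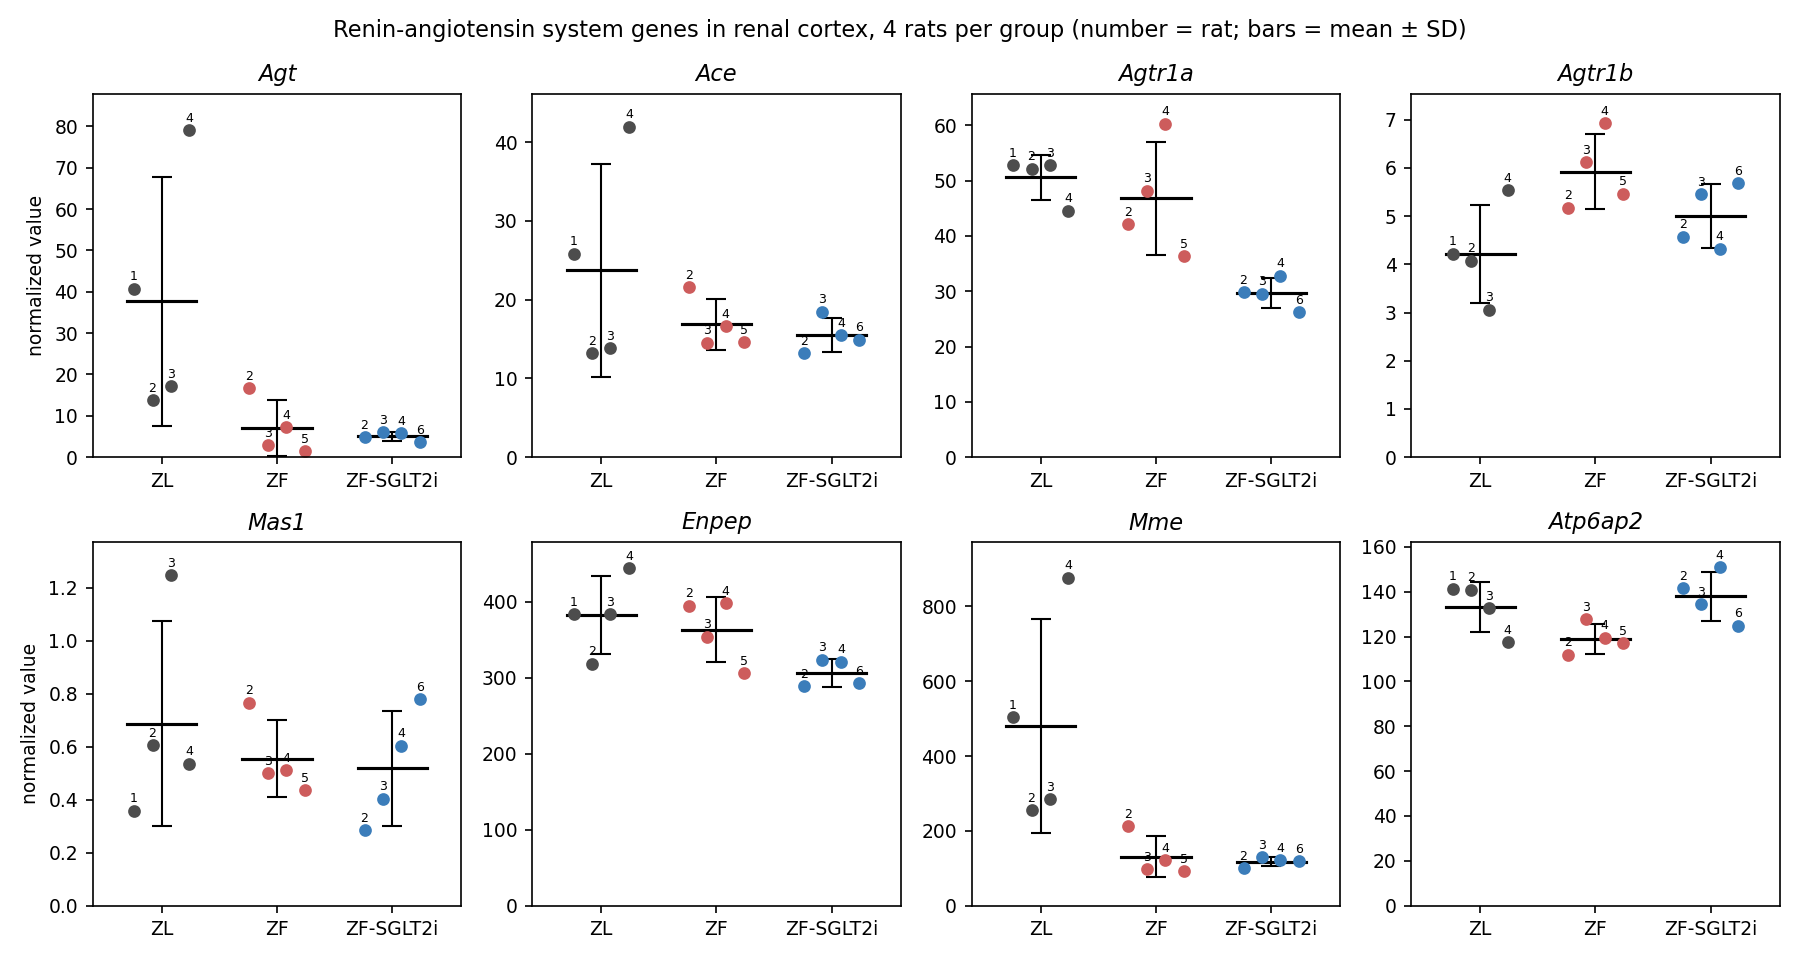
Normalized value (y axis, from 0) of each of the 8 genes in each rat, by group (x axis). Points are rats with their number, the wide bar is the mean and the whiskers are ± 1 SD of 4 rats. Agt and Mme are high and scattered in ZL rats, and Agtr1a is lowest in all 4 ZF-SGLT2i rats, at 26.2 to 32.8.

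Agt, the precursor of all angiotensins, was lower in ZF rats. Its normalized values were 40.7, 13.8, 17.1 and 79.1 in ZL rats 1 to 4. They were 16.7, 2.91, 7.26 and 1.42 in ZF rats 2 to 5. The ZF-SGLT2i rats 2, 3, 4 and 6 had 4.86, 6.06, 5.84 and 3.68. ZF rat 2, at 16.7, lay above ZL rat 2, so ZL and ZF overlapped, while the ZF-SGLT2i rats all lay below the ZL rats. The group means were 37.7 ± 30.1 for ZL, 7.07 ± 6.87 for ZF and 5.11 ± 1.09 for ZF-SGLT2i rats (SD, n = 4). ZF against ZL gave a log2 fold change of -2.33 (SE 0.57, limma adjusted p = 0.0132), or 5.05 times lower. The exact permutation test of the same groups gave p = 0.0571 (two-sided), where the smallest p that 70 assignments allow is 0.0286. The value against ZL rats was -2.35 in the ZF-SGLT2i group (limma adjusted p = 0.00821). ZF-SGLT2i against ZF rats differed by -0.02 with a 95% interval of -1.24 to 1.21, an interval that spans 2-fold changes in both directions. Without ZL rats 1 and 4, a choice made after seeing the data, the ZF against ZL value was -1.42 and no longer passed (limma adjusted p = 0.132), nor did the ZF-SGLT2i against ZL value of -1.44 (limma adjusted p = 0.102). Agt rested on 13 to 885 reads per rat. Its gene model overlaps that of Cog2, a Golgi gene, in the reference. Cog2 had 62.8 ± 4.32 in ZL and 56.7 ± 1.45 in ZF rats (SD, n = 4), with a log2 fold change of -0.14 that did not pass (limma adjusted p = 0.140).

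Ace showed no change that passed. It had 25.8, 13.2, 13.8 and 42.0 in ZL rats 1 to 4, and 21.6, 14.5, 16.7 and 14.6 in ZF rats 2 to 5. The ZF-SGLT2i rats 2, 3, 4 and 6 had 13.2, 18.5, 15.5 and 14.9. The groups overlapped throughout. ZF against ZL was -0.33 with a 95% interval of -0.93 to 0.27 (limma adjusted p = 0.445), and without ZL rats 1 and 4 its sign turned, to 0.28.

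The type 1 receptor genes did not move alike. Agtr1a had values of 52.9, 52.2, 52.8 and 44.6 in ZL rats 1 to 4. It had 42.2, 48.2, 60.3 and 36.4 in ZF rats 2 to 5, on both sides of the ZL range. In ZF-SGLT2i rats 2, 3, 4 and 6 it had 29.9, 29.6, 32.8 and 26.2, below all 8 untreated rats. The fall from ZF to ZF-SGLT2i was -0.62 on the log2 scale (SE 0.12, 95% interval -0.89 to -0.35, limma adjusted p = 0.0166), or 1.54 times lower. The exact permutation test gave p = 0.0286 (two-sided), the smallest that the design allows. Against ZL rats the value was -0.75 (limma adjusted p = 0.000809), or -0.81 without ZL rats 1 and 4 (limma adjusted p = 0.00448), and ZF against ZL was -0.13 (limma adjusted p = 0.507). Leaving out ZF rat 3 or ZF-SGLT2i rat 6 lost the ZF-SGLT2i against ZF call, with limma adjusted p = 0.0548 and 0.0570 and values of -0.60 and -0.57. Agtr1a rested on 235 to 706 reads per rat.

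Agtr1b had fewer reads, 27 to 81 per rat. It had values of 4.22, 4.07, 3.06 and 5.54 in ZL rats 1 to 4, and 5.18, 6.11, 6.92 and 5.47 in ZF rats 2 to 5. The ZF-SGLT2i rats 2, 3, 4 and 6 had 4.57, 5.45, 4.33 and 5.68. All ZF rats but rats 2 and 5 lay above every ZL rat. ZF against ZL was 0.42 (95% interval 0.11 to 0.73, limma adjusted p = 0.0609) and did not pass, though it did without ZL rat 4 (0.53, limma adjusted p = 0.0226) and without ZL rats 1 and 4 (0.60, limma adjusted p = 0.0381). ZF-SGLT2i against ZF was -0.20 (limma adjusted p = 0.520). The Agtr1a value was 12.5, 12.8, 17.3 and 8.05 times the Agtr1b value in ZL rats 1 to 4, and 8.15, 7.88, 8.72 and 6.66 times in ZF rats 2 to 5. In ZF-SGLT2i rats 2, 3, 4 and 6 the ratio was 6.54, 5.43, 7.58 and 4.61, below the ratio in every ZL rat. The exact permutation test of the log2 ratio gave p = 0.0286 for ZF-SGLT2i against ZL, p = 0.0571 for ZF-SGLT2i against ZF and p = 0.0857 for ZF against ZL (two-sided, not adjusted over these 3). The coding sequences of the 2 receptors are nearly alike, so reads could be split between them. How the counting treated such reads is not given in the sources used here, and the split was not tested.

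**Figure D2:**
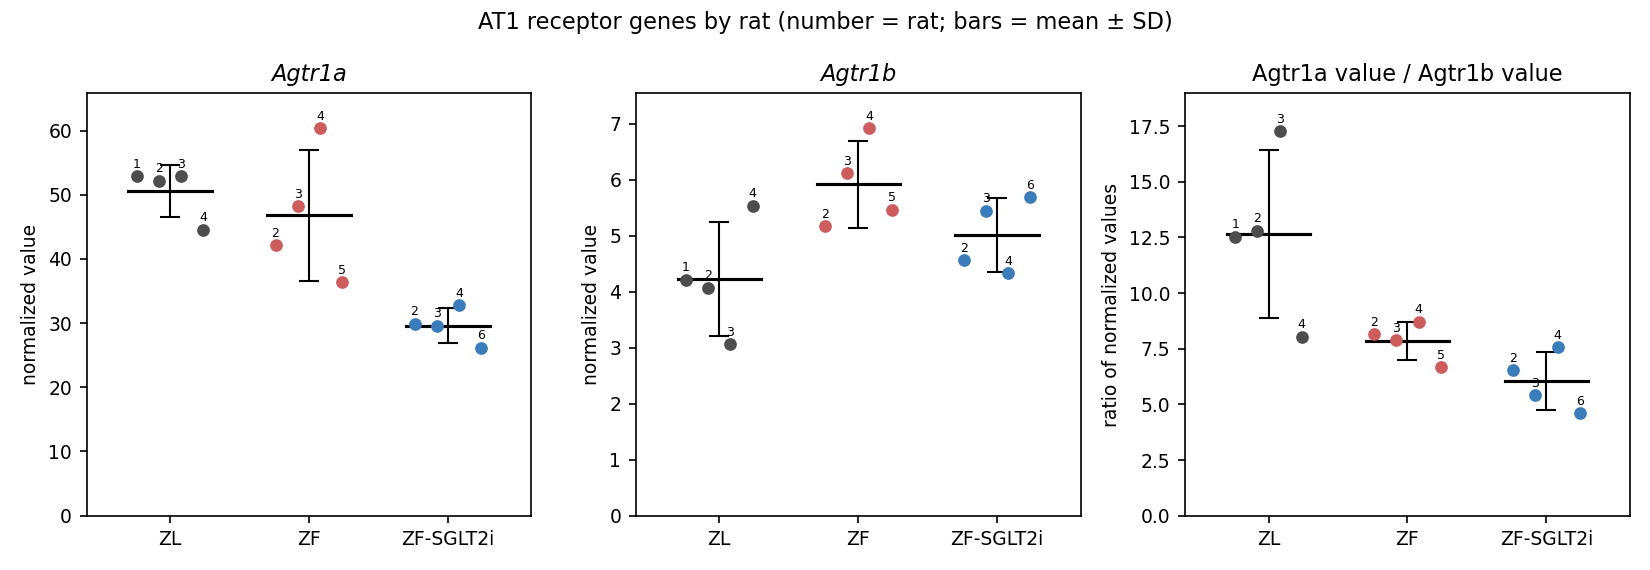
Normalized values of Agtr1a and Agtr1b and the ratio of the values (y axes, from 0) in each rat, by group (x axis). Points are rats with their number, wide bars are means and whiskers are ± 1 SD of 4 rats. The ratio was 12.7 ± 3.76 for ZL, 7.85 ± 0.867 for ZF and 6.04 ± 1.30 for ZF-SGLT2i rats.

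The sequences before the receptor genes are shown because the pair, alike in their coding parts, had unlike values here. Promoter sequence from RefSeq (build GRCr8) was at hand for 7 of the 8 genes, all but Agt. Each stretch is the 250 bases before the start of the gene's transcript, read 5′ to 3′ on the gene's strand, and capitals mark 3 short motifs searched on both strands: TATAAA, the TATA box, CCAAT, the CCAAT box, and AGGTCA, the core of many nuclear receptor sites. Agtr1a is on chromosome 17, minus strand, at chr17:34435433-34435682. Agtr1b is on chromosome 2, minus strand, at chr2:104849263-104849512. Mme, on the plus strand at chr2:149872247-149872496, is shown beside them as the peptidase among the 8 genes that was lower in ZF than in ZL rats.
Agtr1a: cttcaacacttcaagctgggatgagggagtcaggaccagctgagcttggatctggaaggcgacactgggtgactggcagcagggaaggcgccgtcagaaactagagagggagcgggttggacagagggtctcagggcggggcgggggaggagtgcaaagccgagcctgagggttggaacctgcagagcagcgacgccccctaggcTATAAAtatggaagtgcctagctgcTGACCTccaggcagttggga
Agtr1b: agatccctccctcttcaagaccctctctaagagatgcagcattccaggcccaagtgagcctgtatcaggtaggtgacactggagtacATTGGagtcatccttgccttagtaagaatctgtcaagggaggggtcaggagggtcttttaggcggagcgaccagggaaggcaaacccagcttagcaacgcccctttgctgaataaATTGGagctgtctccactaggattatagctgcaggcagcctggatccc
Mme: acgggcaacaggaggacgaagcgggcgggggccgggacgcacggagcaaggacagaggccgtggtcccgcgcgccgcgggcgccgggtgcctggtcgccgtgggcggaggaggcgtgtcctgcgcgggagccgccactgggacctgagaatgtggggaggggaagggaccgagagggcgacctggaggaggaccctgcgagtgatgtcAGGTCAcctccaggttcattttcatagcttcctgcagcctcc
The Agtr1a window holds TATAAA with its first base 45 bases before the start, and the complement of AGGTCA 20 bases before it. The Agtr1b window holds neither and has the complement of CCAAT at 163 and 48 bases before the start. The longest run shared by the receptor windows is 10 bases. The Mme window has AGGTCA at 42 bases before the start. Of 33469 windows of this length in the reference, 12.9% hold TATAAA, 34% hold CCAAT and 14.1% hold AGGTCA on either strand. The windows of Mas1 and Enpep hold none of these letters. The starts used for Agtr1a and Mme lie inside longer gene models of the same reference. These matches describe the sequence only.

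Mas1, the receptor of the vasodilator branch, was barely detected. It had 3 to 11 reads per rat and normalized values of 0.286 to 1.25, and it was left out of the limma fit. The groups had 0.687 ± 0.388 for ZL, 0.555 ± 0.145 for ZF and 0.518 ± 0.218 for ZF-SGLT2i rats (SD, n = 4), and overlapped. The exact permutation tests of the 3 comparisons gave p from 0.543 to 0.743 (two-sided).

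Mme, which encodes neprilysin, a peptidase of angiotensins, kinins and natriuretic peptides, fell in ZF rats. It had values of 504, 256, 285 and 877 in ZL rats 1 to 4. ZF rats 2 to 5 had 212, 98.1, 122 and 93.0, and ZF-SGLT2i rats 2, 3, 4 and 6 had 99.9, 129, 121 and 119. Every fatty rat, treated or not, lay below every ZL rat. ZF against ZL was -1.76 (SE 0.33, 95% interval -2.48 to -1.05, limma adjusted p = 0.00347), or 3.40 times lower, with p = 0.0286 in the exact permutation test (two-sided). ZF-SGLT2i against ZF was -0.09 with a 95% interval of -0.80 to 0.62. ZF-SGLT2i against ZL was -1.85 (limma adjusted p = 0.00135). Without ZL rats 1 and 4 the ZF against ZL value was -1.12 and still passed (limma adjusted p = 0.0175), as did the ZF-SGLT2i against ZL value of -1.20 (limma adjusted p = 0.00663). The ZF against ZL call was lost in 1 of 24 alternatives, with the rat number as a replicate block (limma adjusted p = 0.0616). Podocytes also make neprilysin. Of the podocyte genes, 8 of 12 rose from ZL to ZF rats, such as Nphs1 (0.47, limma adjusted p = 0.00930) and Nes (0.86, limma adjusted p = 0.000398), and their summed value, led by Podxl, was 1812 to 2357 in ZL and 2353 to 2924 in ZF rats. Of all genes 8.19% were higher in this comparison with all rats. Leaving out ZL rats 1 and 4 left 2 of the 12 called higher. The part of podocytes in the Mme values was not tested.

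Enpep, which makes angiotensin III from angiotensin II, did not pass between ZL and ZF rats (-0.07, 95% interval -0.29 to 0.15, limma adjusted p = 0.669). Its values were 384, 319, 383 and 444 in ZL rats 1 to 4, 395, 354, 398 and 306 in ZF rats 2 to 5, and 289, 324, 321 and 293 in ZF-SGLT2i rats 2, 3, 4 and 6. ZL and ZF rats overlapped, and ZF-SGLT2i rats 2 and 6 lay below every untreated rat, while rats 3 and 4 lay within the range of the untreated rats. ZF-SGLT2i against ZL was -0.31 (SE 0.10, limma adjusted p = 0.0364), or 1.24 times lower. That call was lost in 10 of 24 alternatives, for which limma adjusted p reached 0.288 without ZL rats 1 and 4. ZF-SGLT2i against ZF was -0.24 (95% interval -0.46 to -0.02, limma adjusted p = 0.243).

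Atp6ap2, the (pro)renin receptor, had 141, 141, 133 and 117 in ZL rats 1 to 4 and 112, 128, 119 and 117 in ZF rats 2 to 5. The ZF-SGLT2i rats 2, 3, 4 and 6 had 141, 134, 151 and 125. Of the ZF rats, only rat 3 reached into the ZF-SGLT2i range, and ZL rats 1, 2 and 3 also lay in it. ZF against ZL was -0.16 (limma adjusted p = 0.156) and ZF-SGLT2i against ZF was 0.21 (95% interval 0.05 to 0.37, limma adjusted p = 0.154), and neither passed. Of the 21 other genes of the vacuolar proton pump, 3 were lower in ZF than in ZL rats: Atp6v0d1 (-0.29), Atp6v0e2 (-0.25) and Atp6v1g1 (-0.23). That share is close to the 10.6% of all genes that were lower. These calls depend on the scaling, since scaling to the total without ribosomal RNA genes left 0 of 21 called, with 1 under an unadjusted limma p of 0.05. Leaving out ZL rats 1 and 4 also left 0 called by limma, with 11 under an unadjusted p of 0.05. With the authors' scaling and all rats, 7 of 21 were under it, as were 3848 of all 11633 genes tested. In ZF-SGLT2i against ZL rats 3 pump genes were higher and 6 lower, or 0 and 4 without ZL rats 1 and 4, where with all rats 12.4% of all genes were higher and 15.0% lower. The share of higher pump genes is thus close to that of all genes with the authors' scaling. Scaling without the ribosomal RNA genes gave 6 higher and 3 lower, and quantile normalization gave 5 and 5. Of all calls, 72.4% and 52.3% were higher under these scalings. With the authors' scaling the higher ones were Atp6v0d2 (0.49), Atp6v1c2 (0.54) and Atp6v1g3 (0.56), and the lower ones included Atp6v1b2 (-0.64) and Atp6v0d1 (-0.44). In that comparison 4 of 8 collecting duct marker genes were higher and their median log2 fold change was 0.36, and 3 were higher without ZL rats 1 and 4. Atp6v1b1 is on both the collecting duct and the pump list. The part of collecting duct cells in the pump genes' values was not tested.

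**Figure D3:**
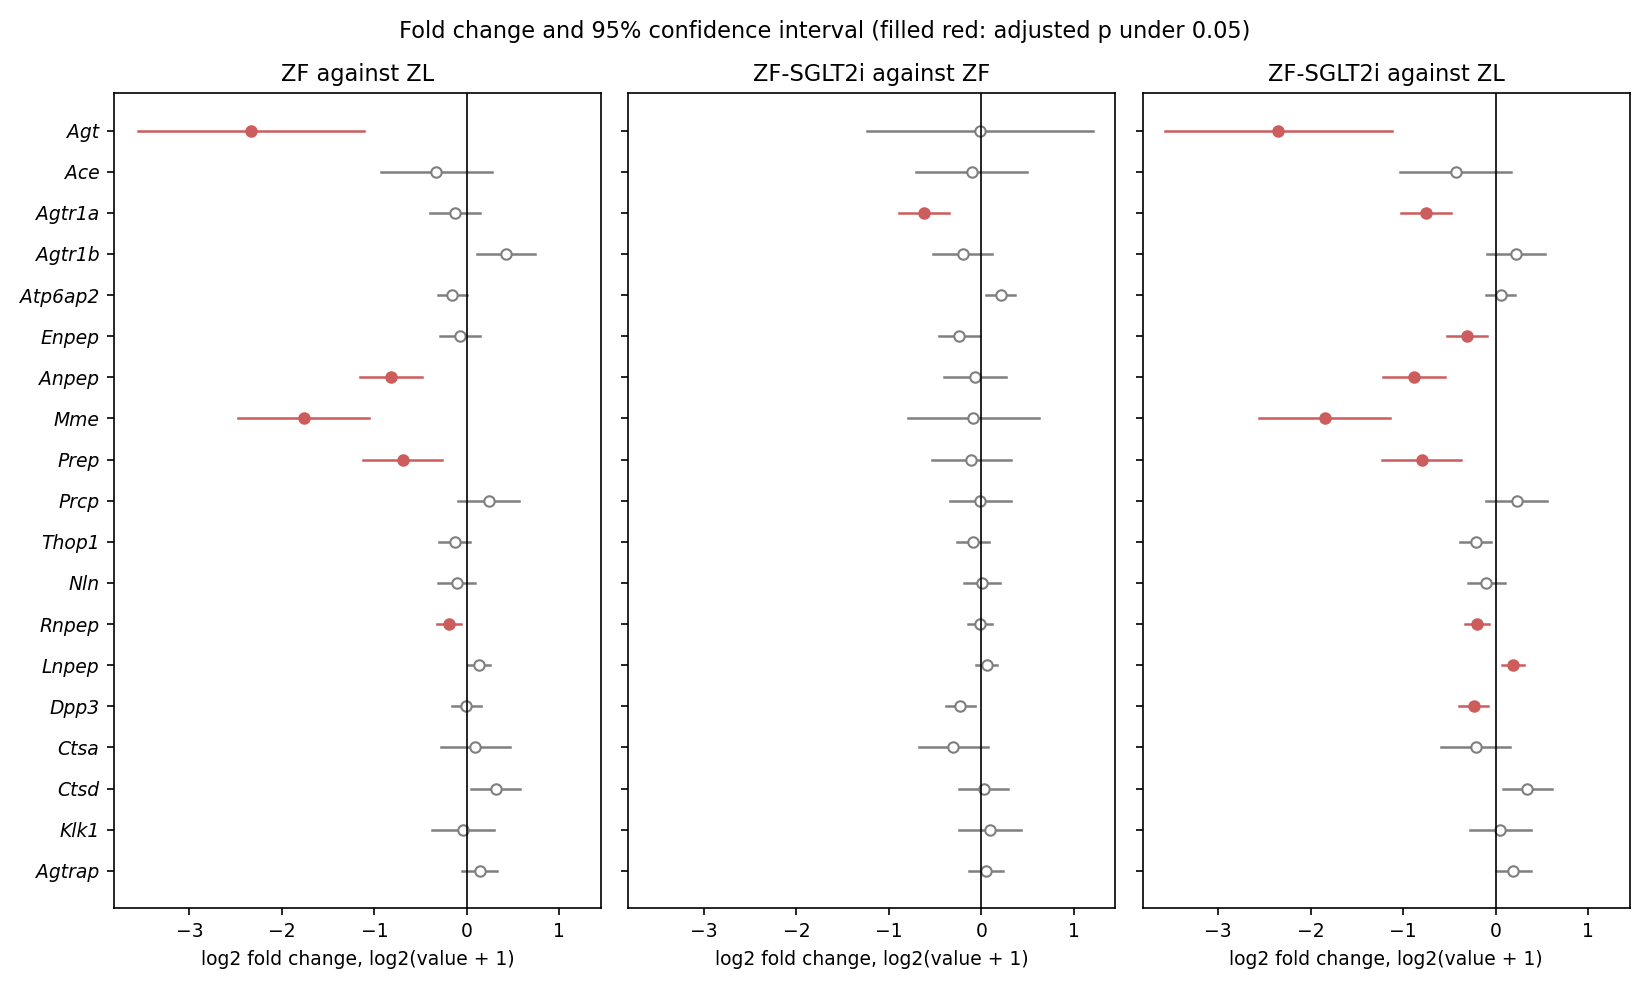
Log2 fold change on the log2(value + 1) scale (x axis) with its 95% confidence interval for 7 of the 8 genes and 12 other genes of the pathway (y axis), in the 3 comparisons. Filled red points passed limma's adjusted p of 0.05, and open grey points did not. Agt and Mme have the lowest values against ZL rats, and Agtr1a alone passed in ZF-SGLT2i against ZF.

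Of 17 other genes of the pathway, 12 were in the table, and all 12 were tested. In ZF against ZL rats 3 of them were lower: Anpep (aminopeptidase N, which trims angiotensin III), Prep (prolyl endopeptidase, which makes short angiotensin peptides) and Rnpep (aminopeptidase B). Of all genes 10.6% were lower in this comparison. Anpep had 629, 472, 492 and 757 in ZL rats 1 to 4 and 356, 294, 409 and 263 in ZF rats 2 to 5, so the groups did not overlap. Its log2 fold change was -0.82 (SE 0.16, limma adjusted p = 0.00369), and it passed in all 24 alternatives. Prep was -0.69 (limma adjusted p = 0.0275) and lost its call in 7 of 24 alternatives, among them that without ZL rats 1 and 4, at -0.26. Rnpep was -0.19 (limma adjusted p = 0.0420) and lost its call in 18 of 24 alternatives. Of the 12, 1 was called without ZL rats 1 and 4, Anpep. The genes higher in ZF than in ZL rats numbered 0 by limma, edgeR and DESeq2, with 5 of the 12 under an unadjusted limma p of 0.05 in either direction. Of all 11633 genes tested, 3848 were under that unadjusted p. Scaling without the ribosomal RNA genes changed the counts to 3 higher and 1 lower, where 78.0% of all calls were higher.

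ZF-SGLT2i against ZF rats gave 0 calls among these 12 genes by limma, edgeR and DESeq2, where limma called 3.15% of all genes. Of the 12, 1 was under an unadjusted limma p of 0.05, as were 1996 of all 11633 genes tested. Against ZL rats 1 was higher, Lnpep (the receptor of angiotensin IV, 0.19), and 4 lower: Anpep (-0.89), Prep (-0.80), Rnpep (-0.21) and Dpp3 (-0.24), which degrades angiotensin II. Of all genes 12.4% were higher and 15.0% lower. The counts were 0 higher and 2 lower without ZL rats 1 and 4. They were 3 higher and 2 lower when scaled without the ribosomal RNA genes, and 3 and 4 with quantile normalization. Under these scalings 72.4% and 52.3% of all calls were higher. Ctsd, a lysosomal protease able to cut angiotensinogen, was 0.34 and did not pass (limma adjusted p = 0.0560). Klk1, tissue kallikrein, had -0.04, 0.09 and 0.05 in the 3 comparisons, and Agtrap, which binds the type 1 receptor, had 0.14, 0.05 and 0.19; none of these passed. Agtr2, Cma1, Cpa3, Ctsg and Mrgprd were not analysed here.

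Mme, Ace, Enpep and Anpep belong to a list of brush border peptidases, of which all 13 were in the table and 12 were tested. In ZF against ZL rats 8 of the 12 were lower and 0 higher by limma. Under an unadjusted limma p of 0.05 were 9 of the 12 and 3848 of all 11633 genes tested. edgeR and DESeq2 each called 7 lower. Of all genes 10.6% were lower. The list's median was -0.72 against -0.0077 for all genes. Apart from those given above, the lower genes were Mep1b (-2.54) and Mep1a (-0.74), the meprin subunits, Ggt1 (-1.26), which breaks down glutathione, Xpnpep2 (-0.74), which inactivates bradykinin, Dpp4 (-0.70), and Tmem27 (-0.55), collectrin. Ace, Enpep, Folh1 and Dpep1 did not pass. The count was 3 lower without ZL rats 1 and 4, where the calls over all genes fell as well. In ZF-SGLT2i against ZF rats limma and unadjusted p gave 0 and 2 of the 12, while edgeR and DESeq2 each called 1. The unadjusted limma p was under 0.05 for 1996 of all 11633 genes tested. Of all genes limma called 3.15% in this comparison, 1.39% higher and 1.75% lower. In ZF-SGLT2i against ZL rats 10 were lower, or 5 without ZL rats 1 and 4, where 15.0% of all genes were lower with all rats.

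Agt, Mme and Prep had the same order of ZL and ZF rats as 4 of the 7 S3 genes: Slc7a13, Slco1a1, Slc22a7 and Slc5a10. Slc5a1 differed in both groups, and Acsm3 and Cyp4a2 in ZF rats. In ZL rats the order from high to low was 4, 1, 3 and 2 for Agt, Mme, Ace, Prep, Anpep, Slc7a13 and Slco1a1 (an organic anion transporter). In ZF rats it was 2, 4, 3 and 5 for Agt, Mme, Prep, Slc7a13 and Slco1a1, and not for Ace or Anpep. The ZF-SGLT2i rats had no common order over these genes. Both orders were also found outside the S3 list, among others in the brush border genes Ggt1 and Mep1b, the lipid droplet gene Cidec and the thick limb gene Umod. How many of all genes share these orders was not counted. Umod had 3014, 2190, 2333 and 3985 in ZL rats 1 to 4. It had 4034, 2559, 2850 and 2418 in ZF rats 2 to 5, and did not pass between these groups (0.05, limma adjusted p = 0.884). Slc12a1, of the same list as Umod, had the ZL order only, and the rest of that list had neither. Slc7a13 and Slco1a1 were chosen as examples after their values were seen. Slc7a13 had 148, 21.4, 36.0 and 6.12 in ZF rats 2 to 5, and 14.1, 19.3, 22.3 and 14.4 in ZF-SGLT2i rats 2, 3, 4 and 6. Slco1a1 had 125, 33.1, 49.0 and 261 in ZL rats 1 to 4 and 27.0, 3.11, 10.2 and 0.874 in ZF rats 2 to 5. Of the 7 S3 genes, 5 were lower in ZF than in ZL rats, with a median log2 fold change of -1.29, and 6 were lower in ZF-SGLT2i than in ZL rats. Of all genes 10.6% and 15.0% were lower in these comparisons. The summed value of the 7, led by Cyp4a2, was 7276, 4687, 6047 and 9300 in ZL rats 1 to 4 and 3920, 3300, 4782 and 3149 in ZF rats 2 to 5. Without ZL rats 1 and 4, 3 of the 7 were called lower in ZF rats and 5 in ZF-SGLT2i rats. The part of the S3 segment or of the thick limb in the values of Agt and Mme was not tested.

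**Figure D4:**
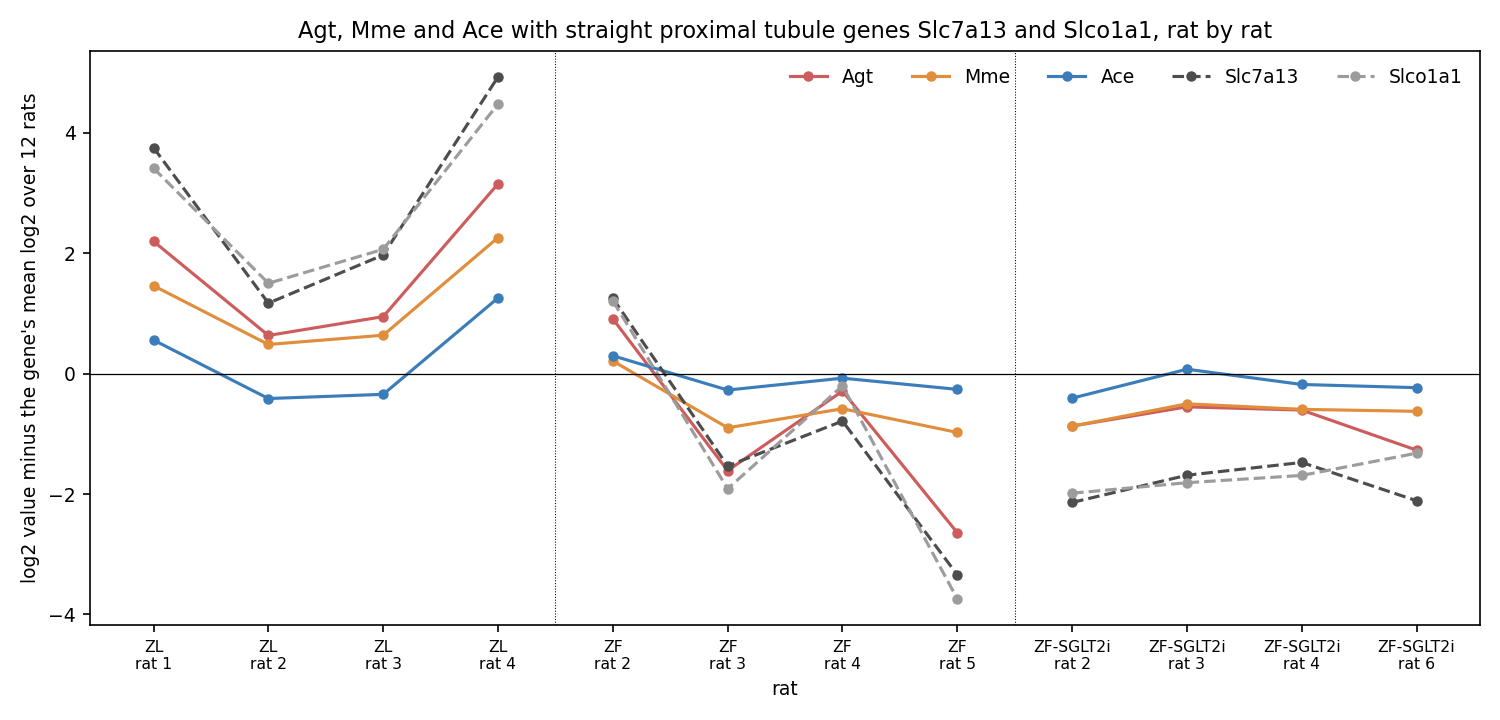
Log2 normalized value minus the gene's mean log2 value over the 12 rats (y axis) for Agt, Mme and Ace (solid lines) and for the S3 genes Slc7a13 and Slco1a1 (dashed lines), rat by rat (x axis, lines join the rats of a group only to guide the eye). ZL rats 1 and 4 are high and ZF rat 5 is low in Agt, Slc7a13 and Slco1a1 together, while Ace varies less.

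Across the 12 rats, the genes most like Agt among 9851 genes with a mean value of at least 5 were B3galt5, Cidec and Aspg, with Pearson r of log2(value + 1) of 0.998, 0.995 and 0.994. Around the group means, pooled over the 3 groups, r was 0.997, 0.988 and 0.986. The genes were chosen by r over these same rats, and r was not computed within each group. Cidec is a lipid droplet gene that was among the fat cell markers, and it had 25.4, 7.02, 10.2 and 45.8 in ZL rats 1 to 4. The other fat cell markers did not follow it: Adipoq had 13.3, 17.4, 13.3 and 11.8 in the same rats, Plin1 and Cfd had at most 4 reads in any rat, and Fabp4 at most 7. The fat cell list had 5 of 7 genes in the table, and its summed value, in which Cidec had the higher mean over the ZL rats and Adipoq over the other groups, was 23.9 to 58.1 for ZL rats, 12.6 to 22.7 for ZF rats and 16.0 to 19.4 for the ZF-SGLT2i group. Mme was most like Slco1a2, Elfn1 and Cyp2c11 (r of 0.990, 0.989 and 0.988, and of 0.967, 0.989 and 0.969 around the group means). Slco1a2 is an organic anion transporter and Cyp2c11 a male-specific steroid hydroxylase of rat liver. The rats share their group and the order of S3 genes described above, and the values are a description over 12 rats.

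Agtr1a was most like Aars, Fbp1 and Igsf11 (r of 0.973, 0.961 and 0.958, and of 0.922, 0.826 and 0.843 around the group means). Fbp1, the gluconeogenic enzyme of the proximal tubule, had 507, 515, 768 and 490 in ZF rats 2 to 5 and 404, 351, 383 and 295 in ZF-SGLT2i rats 2, 3, 4 and 6, a log2 fold change of -0.65 (limma adjusted p = 0.0187). ZF rat 4 was the highest rat and ZF-SGLT2i rat 6 the lowest for both genes. Enpep was most like Limch1, Slc2a5 and RGD1564541 (r of 0.936, 0.921 and 0.920), Atp6ap2 like Etfb, Lztfl1 and the pump gene Atp6v0c (r of 0.899, 0.875 and 0.874), and Agtr1b like Recql, Rcsd1 and Emp1 (r of 0.904, 0.879 and 0.875). Without the 2 rats farthest from the median, r was 0.726, 0.728 and 0.815 for the genes most like Agtr1b, 0.807 to 0.840 for Atp6ap2, 0.884 to 0.887 for Enpep and 0.927 to 0.953 for Agtr1a. It was 0.965 to 0.973 for Mme and 0.985 to 0.995 for Agt. For Ace the genes were Wnt5a, Cryab and Fjx1 (r of 0.957, 0.955 and 0.946), which fell to 0.746, 0.769 and 0.628 in the same way.

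Agtr1a is carried by tubule cells and by other cells, so the markers of both are given beside it. Of 14 proximal tubule genes, 2 fell from the ZF to the ZF-SGLT2i group, Fbp1 and the organic anion transporter Slc22a6 (-0.59, limma adjusted p = 0.00843), and the list's median was -0.14. That list, with Lrp2 the highest, summed to 20640, 20840, 24880 and 19250 in ZF rats 2 to 5 and to 20910, 18900, 19330 and 16290 in ZF-SGLT2i rats 2, 3, 4 and 6. Of 5 tested fibroblast genes, 3 fell from the ZF to the ZF-SGLT2i group: Dcn (-1.11, limma adjusted p = 0.00827), Col3a1 (-1.03, limma adjusted p = 0.00553) and Col1a2 (-0.79, limma adjusted p = 0.0205). Of all genes 1.75% were lower in this comparison. The 6 genes of that list, with the highest mean value over the 12 rats in Pdgfra and over the ZF rats in Col3a1, summed to 728, 521, 728 and 447 in ZF rats 2 to 5 and to 386, 335, 357 and 321 in ZF-SGLT2i rats 2, 3, 4 and 6. Tagln (-0.77, limma adjusted p = 0.0443) was the 1 of 9 smooth muscle and pericyte genes called, and that list, with the highest mean value over the 12 rats in Notch3, summed to 261 to 416 for ZF rats and 213 to 289 for the ZF-SGLT2i group. Of 5 tested mesangial and juxtaglomerular genes, 1 was called in ZF-SGLT2i against ZF rats, Pdgfrb, while Gata3 (0.48, limma adjusted p = 0.0813) and Tbx3 (0.04, limma adjusted p = 0.916) did not pass. Pdgfrb, of mesangial cells and pericytes, rose from ZL to ZF rats (0.67, limma adjusted p = 0.00218) and fell from ZF to ZF-SGLT2i rats (-0.50, limma adjusted p = 0.0309). The part of these cells in the Agtr1a values was not tested.

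Downstream of the type 1 receptor, all 21 signalling genes of the list were in the table and tested. The calls numbered 1, 1 and 6 in the 3 comparisons, where 18.8%, 3.15% and 27.4% of all genes were called. In ZF against ZL rats 1 was lower, Plcb1, a phospholipase C that the receptor activates through Gq (-0.31, limma adjusted p = 0.00796). In ZF-SGLT2i against ZF rats 1 was lower, Gna12, a G protein subunit (-0.37, limma adjusted p = 0.00643). Gna12 had 358 ± 26.5 for ZL, 406 ± 23.7 for ZF and 313 ± 8.74 for ZF-SGLT2i rats (SD, n = 4). Against ZL rats, Plcb1 (-0.56), Prkca (-0.24) and Gna12 (-0.19) were lower in the ZF-SGLT2i group and Plcb4 (0.58), Plcb3 (0.20) and Arhgef1 (0.20) were higher. That balance became 6 higher and 1 lower when scaled without the ribosomal RNA genes, and 4 and 2 with quantile normalization. Of all calls in that comparison, 72.4% and 52.3% were higher under these scalings. The list had 1 call in each direction without ZL rats 1 and 4. Gnaq, Gna11, Itpr1, Rhoa, Rock1 and Rock2 did not pass in any of the 3 comparisons. The list's median was 0.06 in ZF against ZL rats, and scaling without the ribosomal RNA genes turned its call from 1 lower to 7 higher. That scaling moved the median of all genes by 0.12 in this comparison, and 78.0% of all calls were then higher.

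Neprilysin and the natriuretic peptide receptors act on the same peptides. Npr1 and Npr2, which make cyclic GMP, and the clearance receptor Npr3 all rose from ZL to ZF rats, by 0.43 (limma adjusted p = 0.0233), 0.43 (limma adjusted p = 0.0174) and 0.41 (limma adjusted p = 0.0275). Npr1 had 28.1 ± 4.72 for ZL, 38.1 ± 4.62 for ZF and 32.8 ± 3.65 for ZF-SGLT2i rats (SD, n = 4). Npr3 also rose from ZL to ZF-SGLT2i rats (0.58, limma adjusted p = 0.00307). The kinin receptor Bdkrb2 did not pass, with -0.40 in ZF against ZL. Of the 4 genes tested in this list, 1 was called higher without ZL rats 1 and 4 in each comparison with ZL rats. Markers of podocytes and mesangial cells, which carry these receptors, were higher in ZF rats as well, with 8 of 12 and 3 of 5 genes called, or 2 and 3 without ZL rats 1 and 4, where 8.19% of all genes were higher with all rats. Their part in the receptor values was not tested.

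**Figure D5:**
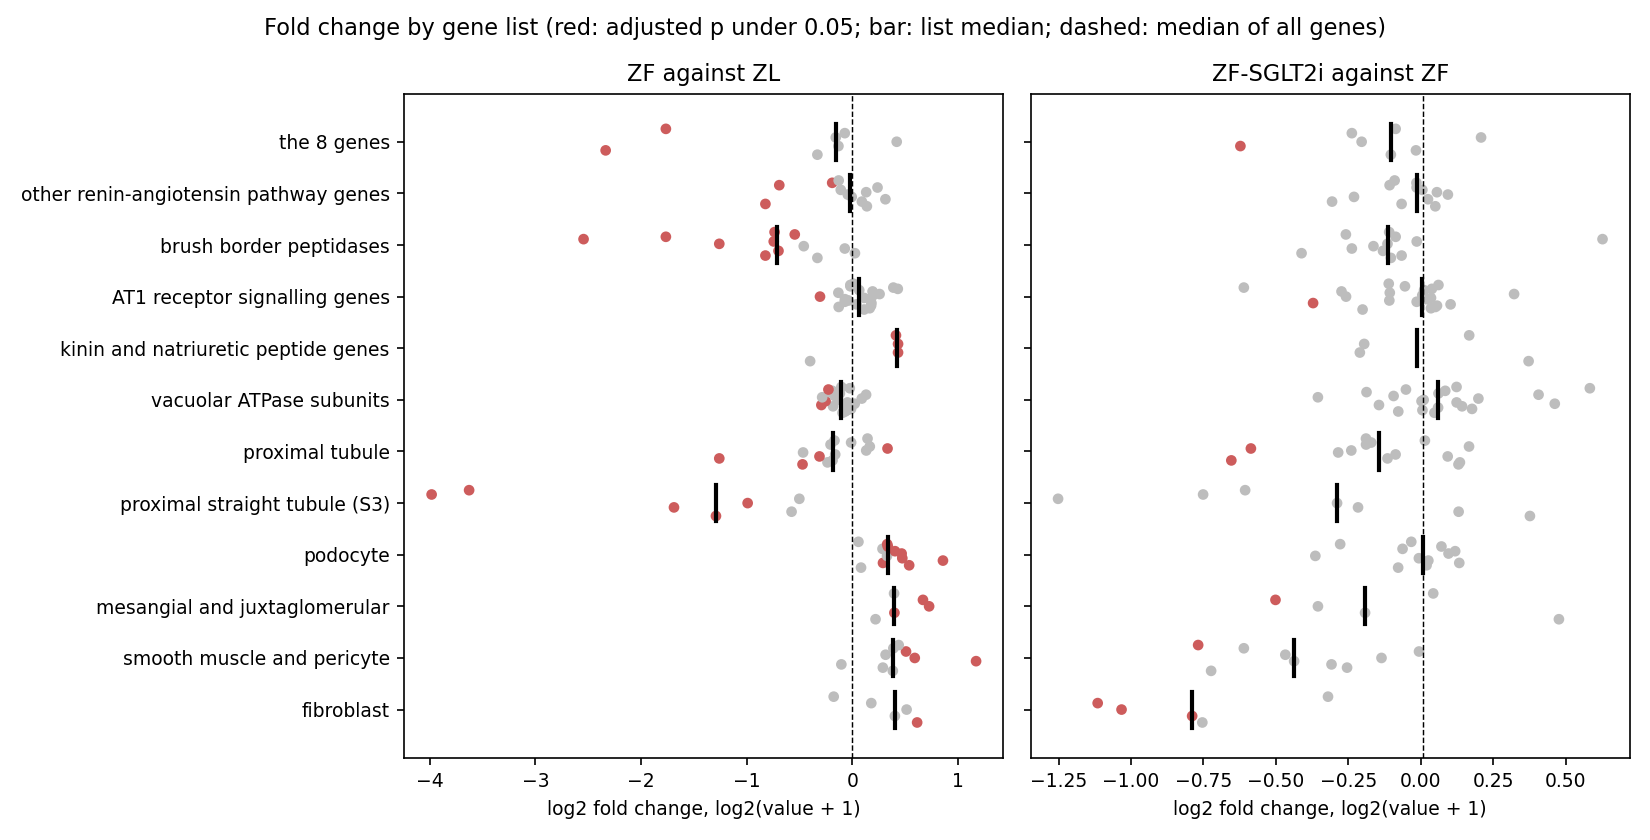
Log2 fold change (x axes, of different length in the panels) of each tested gene, by gene list (y axis), for ZF against ZL (left) and ZF-SGLT2i against ZF (right). Red points passed limma's adjusted p of 0.05, black bars are list medians and dashed lines the median of all genes. Brush border genes but 1 and all S3 genes lie left of the dashed line in ZF against ZL rats, with medians of -0.72 and -1.29, and fibroblast genes lie left of it in ZF-SGLT2i against ZF rats, with a median of -0.79.

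The fold changes depend on how the libraries are scaled to each other. Scaling to a common total without the ribosomal RNA genes Rn28s and Rn45s moved the median gene by 0.12 in ZF against ZL and by 0.11 in ZF-SGLT2i against ZL rats. The share of called genes that were higher then went from 43.6% to 78.0% and from 45.3% to 72.4%, and quantile normalization gave 53.9% for the first comparison. Agt and Mme stayed lower and Agtr1a stayed lower in ZF-SGLT2i against ZF rats under these scalings, all past the threshold. In ZF against ZL rats, Enpep changed sign under scaling without the ribosomal RNA genes and under quantile normalization, and Agtr1b passed without those ribosomal genes.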

How the data were processed

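RNA of renal cortex from 12 rats was sequenced from rRNA-depleted, directional, paired-end libraries. The deposited table holds 1 column per rat of normalized signal values, which the authors made by scaling read counts. All values came out whole, within 0.001, when divided by the smallest value above 0 in a rat, so whole reads were recovered. Per the labels, Trimmomatic 0.38, RSEM 1.3.0, Bowtie2, edgeR and the build rn6 were used; their roles, the annotation and the filter are not given in the sources used here. Fold changes were fitted to log2(value + 1) with limma 3.58.1 (R 4.3.3), 3 groups in 1 fit with a trended prior, over the 11633 genes that reached a value of 1 in 4 or more rats, and adjusted by Benjamini and Hochberg. edgeR 4.0.16 and DESeq2 1.42.0 were run on the whole reads, on which edgeR called 2177, 368 and 3216 genes in the 3 comparisons. Single genes were also tested by exact permutation. The fits were tested on simulated data. The genes and lists were chosen with earlier results of these data known. Named were the 8 genes, genes of the lists, and the 3 genes with the highest Pearson r to each. RefSeq names of GRCr8 matched all 8 genes and gave overlapping gene models and promoters. The rat numbers come from the labels, and the sources do not say that they mark litters or batches. Symbols that name the same gene were counted once in a list. Some genes of the pathway are not reported here. No sequence of a protein is printed. Intervals cover the spread between rats.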

Additional observations from a re-analysis of the deposited data

Results flagged for a closer look

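Among 60 groups of 4 rats, the 8 genes and 12 other pathway genes in 3 groups each, 4 held a rat far from the other 3, where chance gives about 3. Agtr1a was 44.6 in ZL rat 4 against 52.2 to 52.9 in the other ZL rats. For Anpep, ZF-SGLT2i rat 6 had 266 while its group otherwise spanned 325 to 333. For Rnpep, ZF-SGLT2i rat 4 had 57.4 and the remaining treated rats 55.8 to 56.0. Dpp3 was 62.2 in ZF rat 5 against 73.0 to 74.9.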

How the results depend on the processing

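Each result was recomputed under 24 alternatives, of which leaving out ZL rats 1 and 4 together was chosen after seeing the data. Over the gene results, 612 values kept their direction and side of the threshold, 61 lost the call, 4 gained it and 16 changed sign. The rat numbers did not pair the rats: same-numbered rats correlated from -0.376 to 0.253 around the group means. With the number as a replicate block, 0 of the 8 genes and 807 of all genes were called in ZF against ZL, 1 and 223 in the treated against the untreated ZF rats, and 2 and 1502 in the treated rats against ZL. Without ZL rats 1 and 4, all genes called numbered 1048 and 1778 against ZL rats, and 2 of the 8 genes were called in the treated rats. Array quality weights gave 689 and DESeq2 641 calls for the treated against the untreated ZF rats, in place of 366. Leaving out each rat in turn gave 1389 to 2453 calls in ZF against ZL, with counts more than 1.5 times lower without ZL rat 1, ZF rat 2 (1451) or ZF rat 3 (1426), and 2 to 3 of the 8 genes. For the treated against the untreated ZF rats it gave 176 to 570 calls, highest without ZF rat 5, lowest without ZF-SGLT2i rat 3, and also low without ZF rats 2 (207), 3 (184) or 4 (187) or ZF-SGLT2i rats 4 (210) or 6 (182), and 0 to 1 of the 8 genes, with 0 without ZF rat 3 or ZF-SGLT2i rat 6. For the treated rats against ZL it gave 2241 to 3302 calls and 3 to 4 of the 8 genes. All changes of sign were in results that did not pass. In ZF against ZL, Enpep was 0.072 with quantile normalization, 0.052 without the ribosomal RNA genes, 0.013 with the block, 0.048 without ZL rats 1 and 4, and from -0.156 to 0.0077 with single rats left out, above 0 without ZL rat 4 (0.0030) or ZF rat 5. In the treated against the untreated ZF rats, Agt was 0.069 with a pseudocount of 0.1, 0.052 with array weights and -0.460 to 0.496 with single rats left out, Ace was -0.185 to 0.016 and Mme -0.223 to 0.170, each highest without ZF rat 2. Without ZL rats 1 and 4, Ace was 0.283 in ZF and 0.180 in treated rats against ZL. Atp6ap2 in the treated rats against ZL was -0.0076 without ZL rat 4 and up to 0.098 with other rats left out. The causes were not tested. Agtr1b had no value under the filter on a mean of at least 10. Depth limits Mas1 most, with 3 to 11 reads per rat.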
